A study of Mus musculus with 4 samples.

Results

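Theca cells that carried high levels of the steroidogenic transcripts Cyp17a1 and Cyp11a1 were described in single-cell RNA sequencing of mouse ovary. They were chosen on measured values in the 4 deposited libraries. A cell qualified when it had at least 1000 UMIs (molecular tags that count each captured transcript once), at most 20% of UMIs from mitochondrial genes, and 1 or more UMI of at least 3 of the 6 genes Lhcgr, Hsd3b1, Aldh1a1, Mgarp, Insl3 and Star. It also had 0 UMIs of the granulosa gene Fshr, at most 1 UMI of Inhba, and at least 10 UMIs of Cyp17a1 and Cyp11a1 together per 10000 UMIs. This sum per 10000 UMIs is called the steroidogenic level below. The rule picked 1380 of the 33639 deposited cells, or of the 30523 cells within the UMI and mitochondrial limits. The labels place treatment of the prepubertal mice at postnatal day 25, and the age at dissection, after the second weekly dose, is not given in the sources used here. Each of the 4 groups was 1 library. Control mice received vehicle (PBS and saline), doxorubicin mice received 2 weekly doses of 3 mg/kg, doxorubicin+AMH mice received these doses together with 0.75 mg/kg of recombinant human anti-Müllerian hormone (AMH), and AMH mice received 0.75 mg/kg of the hormone alone. Dissection followed 4 hours after the second dose, and 1 ovary from each of 5 animals was pooled for each library, per the labels. The spread between animals was therefore not measured, no test between groups was run, and each difference below lies between libraries and has no replicate of its own.

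Theca cells form the layer outside the basement membrane of the follicle. Under luteinizing hormone, acting through the receptor Lhcgr and cAMP, they import or make cholesterol, pass it into mitochondria with Star, cleave its side chain with Cyp11a1, oxidise the product with Hsd3b1, and use Cyp17a1 to make androgens, which granulosa cells turn into oestrogen. AMH is a TGF-beta family hormone of granulosa cells that signals through Amhr2 and BMP-type SMAD proteins, whose known direct targets include the Id genes, Smad6, Smad7 and Bambi. Doxorubicin is an anthracycline that poisons topoisomerase and breaks DNA, and p53 then switches on genes such as Cdkn1a.

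The libraries held 138647495 to 178279122 UMIs in 7141 to 9478 deposited cells. Barcodes shared between libraries numbered 11 to 24 per pair, and 0 were shared among the members. Leukocytes, here cells outside the pool with UMIs of Ptprc (CD45), should lack the genes but held some of their UMIs. After each cell was thinned to 2000 UMIs, Cyp17a1 was seen in 87.7% of control members, 71.0% of doxorubicin members, 63.8% of doxorubicin+AMH members and 43.3% of AMH members, against 3.73%, 2.3%, 0% and 0% of leukocytes. Intervals given below are exact 95% intervals and cover counting error only. Levels are the members' UMIs of a gene added up per library and divided by all their UMIs (CPM, per 1000000). Each ratio is the log2 quotient of 2 levels after adding 5 CPM to both, which understates the difference of low genes. Where 4 values follow each other, they belong to control, then doxorubicin, then doxorubicin+AMH, then AMH.

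The upstream sequences below belong to a gene that chose the cells and to 2 BMP/SMAD target genes that were higher together in the libraries with AMH over all members. Each is the 250 bases before a RefSeq start on GRCm38.p6, 5′ to 3′ on the gene's strand. Cyp11a1 has a RefSeq start after chr9:58014702-58014951 on the plus strand, and Id2 lies after chr12:25096093-25096342 on the minus strand. Id3 lies after chr4:136143572-136143821 on the plus strand. Capitals mark AGGTCA (or its reverse complement TGACCT), a nuclear receptor core motif that steroidogenic factor 1, the product of Nr5a1, can bind, and GGCGCC, a GC-rich SMAD motif that reads the same on both strands.
Cyp11a1: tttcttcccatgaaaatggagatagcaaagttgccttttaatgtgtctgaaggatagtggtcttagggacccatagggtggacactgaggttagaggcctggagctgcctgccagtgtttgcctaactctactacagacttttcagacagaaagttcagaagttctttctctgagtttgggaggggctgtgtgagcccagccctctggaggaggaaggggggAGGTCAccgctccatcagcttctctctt
Id2: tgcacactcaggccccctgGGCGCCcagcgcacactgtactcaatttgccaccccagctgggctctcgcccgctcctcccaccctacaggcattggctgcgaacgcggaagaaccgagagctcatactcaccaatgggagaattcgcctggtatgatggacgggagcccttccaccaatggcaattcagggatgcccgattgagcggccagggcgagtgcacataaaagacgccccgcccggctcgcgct
Id3: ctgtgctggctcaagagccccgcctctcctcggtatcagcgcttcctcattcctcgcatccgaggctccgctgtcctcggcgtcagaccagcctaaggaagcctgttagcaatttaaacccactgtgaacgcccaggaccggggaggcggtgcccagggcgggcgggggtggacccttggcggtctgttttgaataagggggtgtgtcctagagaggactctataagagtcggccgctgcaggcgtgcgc
In the Cyp11a1 window AGGTCA starts at position -28, counted from the base before the start as -1, and in the Id2 window GGCGCC starts at position -231. The Id3 window holds neither motif, and the window before the other RefSeq start of Cyp11a1, chr9:57997774-57998023, holds neither. Of 32851 promoter windows of this length, 14.0% hold AGGTCA and 9.59% hold GGCGCC, so a match is a description of these letters and no more.

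Members were far fewer in the libraries with AMH, and the wider pool of cells with theca markers was smaller there by less. Control held 742 members, or 8.64% of its cells within the limits (8.05 to 9.25), and doxorubicin held 424, or 6.62% (6.02 to 7.26). The doxorubicin+AMH library held 117, or 1.68% (1.39 to 2.00), and the AMH library held 97, or 1.14% (0.921 to 1.38). These shares describe the selection, because Cyp17a1 and Cyp11a1 chose the cells. Without the threshold on the steroidogenic level the pool was 1248, 840, 796 and 949 cells, or 14.5% (13.8 to 15.3), 13.1% (12.3 to 14.0), 11.4% (10.7 to 12.2) and 11.1% (10.4 to 11.8) of cells. Of this pool, 59.5% (56.7 to 62.2) passed the threshold in control, 50.5% (47.04 to 53.9) in doxorubicin, 14.7% (12.3 to 17.4) in doxorubicin+AMH and 10.2% (8.37 to 12.3) in AMH.

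**Figure D1:**
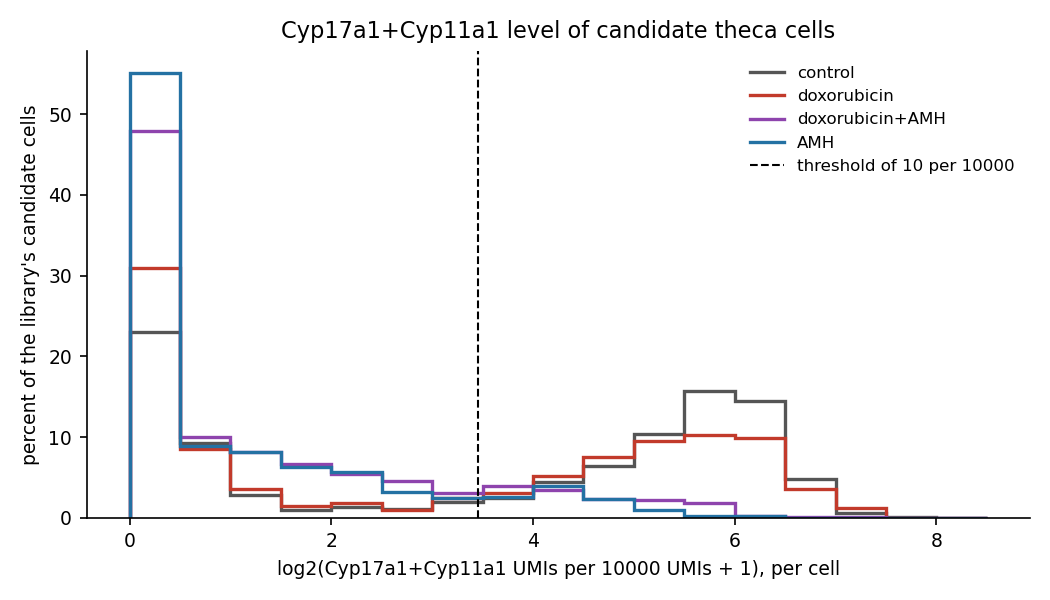
Distribution of the steroidogenic level (Cyp17a1 and Cyp11a1 UMIs per 10000 UMIs, as log2 of the level plus 1) among cells with theca markers, as percent of those cells in each library, with the threshold of 10 marked. Control and doxorubicin cells spread up to high levels, and most cells of the libraries with AMH lie below the threshold.

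The median steroidogenic level of the pool was 25.1, 10.6, 0.505 and 0 per 10000 UMIs, and that of the members was 51.6, 43.7, 20.3 and 19.1. Members of the libraries with AMH thus sat close to the threshold. In the range from 10 to below 25 lay 117 of 742 control members, 93 of 424 doxorubicin members, 67 of 117 doxorubicin+AMH members and 75 of 97 AMH members. From 100 upwards the counts were 37, 27, 2 and 0 cells. The members just inside the threshold had levels of 10.01, 10.03 and 10.1, and the cells just outside it had 9.997, 9.99 and 9.91. Depth was alike, with median totals of 20687, 22953.5, 22923 and 25276 UMIs per member, and 8.19%, 8.04%, 6.43% and 7.06% of the members' UMIs were mitochondrial.

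The genes of the rule gave the selected profile, listed here as a description. Cyp17a1 (chr19:46667165-46673172, minus strand, GRCm38) measured 1893, 1698, 1066 and 497 CPM, and Cyp11a1, whose annotation overlaps 1 other gene on the same strand, 3259, 3103, 1487 and 1560 CPM. Hsd3b1, which makes progestins and androstenedione, measured 4423, 4608, 3089 and 3270 CPM, and Star 442, 360, 417 and 504 CPM. Lhcgr measured 410, 460, 431 and 504 CPM, and Aldh1a1, a retinaldehyde dehydrogenase, 2715, 2912, 1948 and 2254 CPM. Insl3, a theca and Leydig cell hormone whose transcript end shares sequence with 1 other gene, measured 74.7, 60.0, 28.1 and 66.9 CPM. Lhcgr and Star differed by less than the fold of 0.5 used here in each pair of libraries, unlike Mgarp, a mitochondrial protein of steroidogenic cells, at 926, 954, 474 and 509 CPM. Over all cells of a library Cyp17a1 came to 323, 284, 43.1 and 19.1 CPM, and members held 71.1%, 51.6%, 60.0% and 47.8% of those UMIs.

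Serpina5 and Fabp3 are listed theca markers that the rule did not use, but the list was written with these data known. Their values describe the members and are no separate check of the name theca. Serpina5 measured 268, 290, 102 and 148 CPM in members and 6.64, 11.97, 37.2 and 30.8 CPM in cells below the threshold. Fabp3, a fatty acid binding protein, measured 658, 713, 157 and 194 CPM against 70.9, 65.7, 39.0 and 44.7 CPM. Both were higher in members in each library, and thinned shares of members with Fabp3 were 56.6%, 58.0%, 19.8% and 24.7%, against 3.32%, 3.45%, 1.504% and 1.58% of leukocytes. Unthinned the members' shares were 86.0%, 88.9%, 60.7% and 70.1%, and the leukocytes' were 10.4%, 17.0%, 8.63% and 14.1% at median depths of 8286 to 10865.5 UMIs. Of a library's Fabp3 UMIs, members held 53.7%, 39.7%, 12.7% and 10.3%. The whole pool of cells with theca markers held 57.8%, 43.6%, 28.1% and 25.3%, so in the libraries with AMH most lay outside it.

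Defining markers of granulosa and luteal cells were near 0, while some broader markers of those cells were high. Cyp19a1, the aromatase of granulosa cells, lay at 0.233, 0.245, 0.302 and 0 CPM, and Amh at 2.47, 3.60, 2.42 and 3.59 CPM. The 12 granulosa markers summed to 949, 1016, 741 and 669 CPM, mostly from Inha (425, 451, 225 and 225 CPM) and Gja1 (405, 457, 406 and 340 CPM), and Fshr was at 0 in each library by the rule. The luteal list, which shares Cyp11a1 with the rule, summed to 5104, 4820, 2769 and 3000 CPM, against 287, 297, 595 and 532 CPM below the threshold. In it Akr1c18 reached at most 0.326 CPM and Ptgfr at most 2.72 CPM, while the prolactin receptor Prlr measured 1030, 976, 492 and 672 CPM. Stromal fibroblast markers summed to 231, 217, 403 and 348 CPM, smooth muscle markers to 188, 143, 68.8 and 79.9 CPM, and epithelial markers to 33.2, 7.04, 9.96 and 15.0 CPM. Leukocyte markers summed to 67.3, 28.7, 134 and 57.4 CPM, and erythroid markers to 965, 369, 1247 and 6.52 CPM. The part of these other markers in the differences between libraries was not tested. Scrublet marked 97, 48, 5 and 3 members as likely doublets, which were kept. These were 13.1%, 11.3%, 4.27% and 3.09% of members, against 7.36%, 5.71%, 6.25% and 7.59% of all cells, so the marked share was above that of all cells in the libraries without AMH and below it in the others.

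Members carried more transcript of Fdx1, Fdxr and many cholesterol genes than cells below the threshold of the same library. The cells below the threshold met every other part of the rule and numbered 506, 416, 679 and 852, with 5.19%, 5.63%, 5.39% and 5.74% mitochondrial UMIs. Because the rule split these cells on a level measured in the same libraries, the comparison is a description. Of 6639 genes, 248 were at least 0.5 higher in each of the 4 libraries, a background of 3.74%, and 501 were at least 0.5 lower, a background of 7.55%. Fdx1, the ferredoxin that hands electrons to Cyp11a1, measured 4196, 4070, 3905 and 3355 CPM in members and 284, 296, 1277 and 991 CPM below the threshold. Its ratios were 3.86, 3.76, 1.61 and 1.75, so the gap was wider in the libraries without AMH. The cells below the threshold also differed between libraries. Epithelial markers summed to 1021, 752, 99.5 and 264 CPM in them and blood endothelial markers to 597, 364, 151 and 199 CPM. Their median totals were 21671, 22979.5, 16072 and 14751.5 UMIs. The part of these differences in the gap was not tested. Fdxr, the reductase that feeds Fdx1, had ratios of 2.70, 2.41, 1.14 and 1.41.

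Genes of cholesterol supply were higher in members as a group. Of 25 tested genes of cholesterol synthesis, uptake and storage, 18 were higher past the fold in each library and 0 were lower, against the 3.74% of all genes. The list's median ratios were 1.57, 1.54, 0.99 and 0.92, against -0.11, -0.12, -0.07 and -0.06 over all genes. Hmgcs1, an early enzyme of cholesterol synthesis, measured 392, 378, 259 and 255 CPM in members and 72.7, 66.0, 89.4 and 92.7 CPM below the threshold. Scarb1, the receptor that takes cholesterol from HDL, measured 803, 731, 777 and 757 CPM against 131, 123, 238 and 203 CPM. Idi1, an isomerase of the isoprenoid route whose transcript end is shared with 2 other genes, had ratios of 2.74, 2.55, 2.38 and 1.96.

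Defb19, Cst8, Fads2 and Alas1 were among the 10 genes with the widest gap. Defb19, a defensin-family gene, measured 230, 278, 147 and 155 CPM against 25.7, 43.7, 17.4 and 20.05 CPM below the threshold. Cst8, a cystatin, measured 132, 131, 102 and 106 CPM against 9.82, 8.999, 13.7 and 8.17 CPM. Fads2, a fatty acid desaturase, had ratios of 3.43, 3.77, 2.37 and 2.22. Alas1, the first enzyme of haem synthesis, which cytochrome P450 enzymes need, had ratios of 2.88, 2.70, 1.96 and 1.95. The others were Idi1, given above, Nckap5, Fabp3, Susd3, Iqgap2 and Spink4. Among regulators, Nr5a1 (steroidogenic factor 1) measured 169, 164, 83.6 and 91.7 CPM against 32.5, 40.7, 40.1 and 38.8 CPM, and Cebpa had ratios of 3.15, 2.79, 1.40 and 1.67. Kit, the receptor for Kit ligand, had ratios of 3.43, 3.39, 1.27 and 1.21.

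Cells below the threshold carried contractile and epithelial genes instead. Acta2 (smooth muscle actin) measured 75.7, 52.6, 36.8 and 36.9 CPM in members and 809, 643, 569 and 346 CPM below the threshold. Tagln had ratios of -3.14, -3.69, -4.34 and -3.19, and Igfbp5, which binds insulin-like growth factors, -5.08, -5.46, -3.0 and -3.07. Wt1, a gonadal transcription factor, had ratios of -3.59, -3.98, -2.58 and -3.63. Ccl21a, a chemokine whose transcript end is shared with 2 other genes, Myh11, Cnn1, Prkg1, C3 and Crip1 completed the 10 lowest. All 4 tested smooth muscle markers, all 6 tested blood endothelial markers and all 6 tested epithelial markers were lower in members past the fold in each library, against 7.55% of all genes, so the cells below the threshold are a mixture and no matched theca control.

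**Figure D2:**
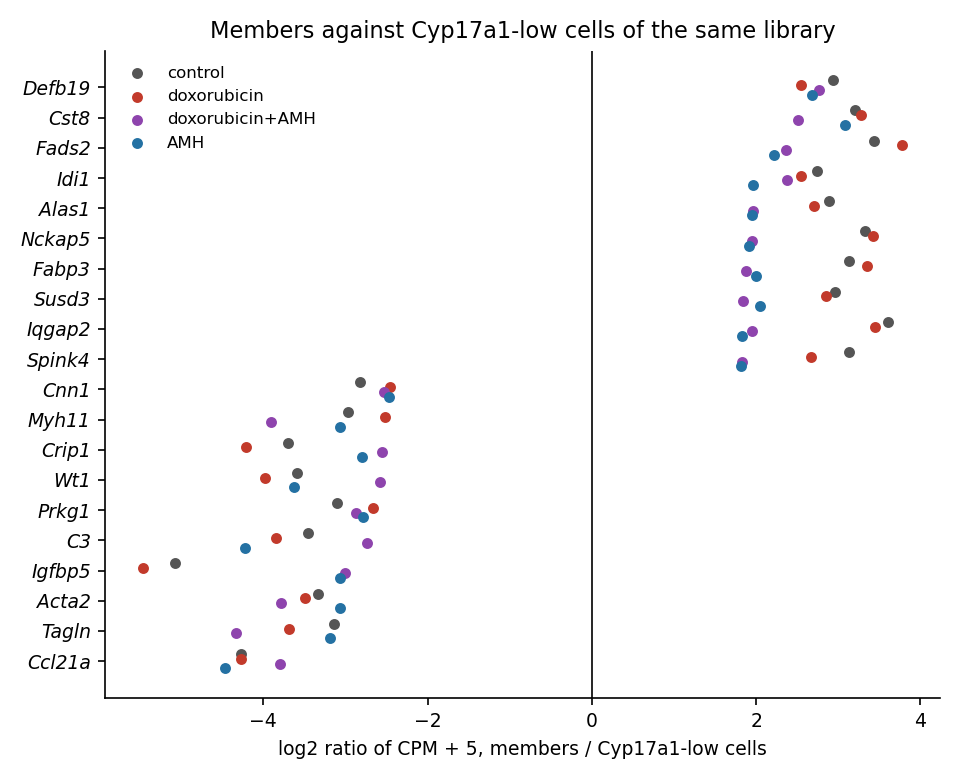
Log2 ratio of members to cells below the steroidogenic threshold for 20 genes, 1 point per library. The points of Igfbp5 lie at -5.08, -5.46, -3.0 and -3.07.

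Within the members, genes followed the steroidogenic level in opposite ways. Members were divided at levels of 10, 25, 50 and 100, which are ranges of a score and no cell types. In control, Fdx1 measured 3041 CPM from 10 to below 25, 3757 from 25 to below 50, 4758 from 50 to below 100 and 6188 from 100. In doxorubicin the same ranges gave 2392, 3664, 5363 and 5948 CPM. Fabp3 went from 167 through 417 and 932 to 1592 CPM in control and from 433 through 608 and 856 to 1708 CPM in doxorubicin. Kit went from 95.1 through 199 and 297 to 372 CPM in control. These genes were thus lowest near the threshold in the libraries that filled each range.

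Stromal and SMAD-target genes ran the other way. Enpep, a membrane aminopeptidase of stromal fibroblasts and other cells, measured 136, 37.2, 13.3 and 5.01 CPM over the 4 control ranges and 136, 30.7, 16.5 and 10.0 CPM in doxorubicin. Id3 (chr4:136143497-136145755, plus strand) measured 209, 98.0, 45.6 and 56.7 CPM over the control ranges and 97.2, 89.7, 58.7 and 40.0 CPM in doxorubicin. Stromal fibroblast markers summed to 519, 297, 103 and 58.4 CPM over the control ranges. The doxorubicin+AMH and AMH libraries had 11 and 4 cells from 50 to below 100 and 2 and 0 from 100, so their upper ranges are not read.

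**Figure D3:**
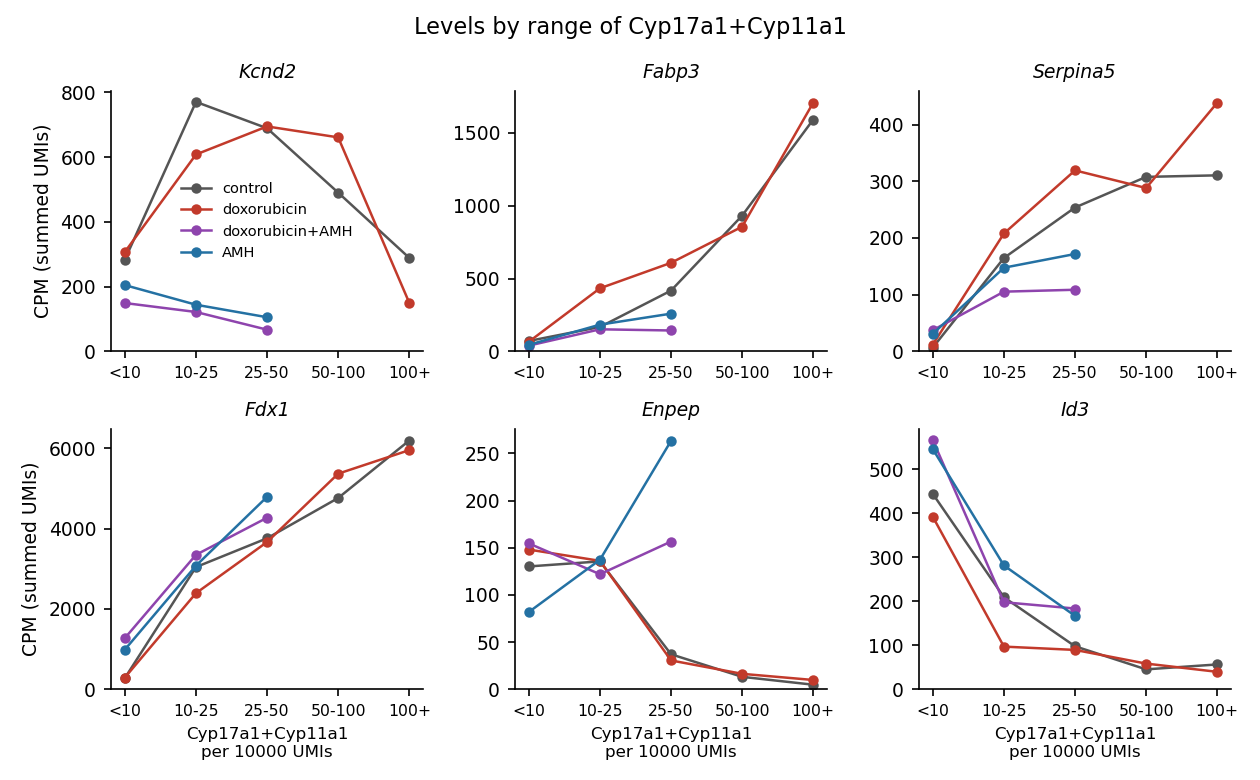
Level in CPM (summed UMIs) of Kcnd2, Fabp3, Serpina5, Fdx1, Enpep and Id3 by range of the steroidogenic level, 1 line per library, with the libraries with AMH drawn to the range of 25 to below 50. Control Fdx1 goes from 3041 to 6188 CPM over the member ranges and control Enpep from 136 to 5.01 CPM, and Kcnd2 of the libraries with AMH lies below that of the others.

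The AMH comparisons ask how the transcripts of these cells differed where AMH had been given. The AMH / control and doxorubicin+AMH / doxorubicin pairs share no library, and paired ratios below follow that order. Of 6208 genes tested, 130 were at least 0.5 higher in both pairs, a background of 2.09%, and 272 were at least 0.5 lower in both, a background of 4.38%. Across genes the 2 sets of ratios had Pearson's r of 0.551 and Spearman's rho of 0.565, and 70.7% of genes had the same sign, as a description over genes that share their libraries' depth. Because members of the libraries with AMH sat near the threshold, ratios of the genes below are also given for the members from 10 to below 25 alone, called the matched range. That comparison was chosen after the values were seen and rests on 117, 93, 67 and 75 cells, with median levels of 18.3, 18.7, 14.8 and 16.8. Cyp17a1 alone measured 614, 329, 486 and 300 CPM in this range, with ratios of -1.02 and 0.56. The range thus bounds the sum with Cyp11a1 and does not match Cyp17a1 itself. Markers of other cells differed in this range. Smooth muscle and pericyte markers summed to 345, 81.8, 78.0 and 85.5 CPM, blood endothelial markers to 223, 43.9, 34.4 and 47.8 CPM, and erythroid markers to 2701, 1536, 1967 and 7.06 CPM. Control thus held the most of all 3, and their part in the matched ratios was not tested. It left 49 higher and 113 lower genes of 6263, backgrounds of 0.782% and 1.8%, of which 30 and 70 were among the 130 and 272.

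Kcnd2 led the lower genes by the ratio closer to 0 and stayed apart within the matched range. Kcnd2 (chr6:21215503-21729805, plus strand) encodes the Kv4.2 subunit of A-type potassium channels. It measured 595 CPM (585 to 606) in control members, 633 (619 to 647) in doxorubicin, 96.3 (86.0 to 107) in doxorubicin+AMH and 135 (122 to 148) in AMH. Both libraries with AMH lay below both without. The ratios were -2.10 without doxorubicin and -2.65 with it. In the matched range Kcnd2 measured 771, 608, 121 and 144 CPM, with ratios of -2.38 and -2.28, and from 25 to below 50 it measured 689, 695, 66.8 and 105 CPM. Leukocytes held 57.1, 20.5, 10.5 and 50.2 CPM of Kcnd2. No member held more than 19.4% of a library's Kcnd2 UMIs. Cells below the threshold had 284, 307, 149 and 205 CPM, so members lay above them without AMH and below them with AMH.

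A few more genes were lower with AMH in both comparisons and in the matched range. Meg3, an imprinted long noncoding RNA whose transcript end is shared with 1 other gene, measured 176, 153, 47.4 and 51.5 CPM, with ratios of -1.68 and -1.60 and matched ratios of -1.69 and -1.03. Ptprt, a receptor tyrosine phosphatase, measured 39.8, 36.2, 4.83 and 6.52 CPM. Its matched levels were 16.4, 28.5, 3.83 and 4.71 CPM, with ratios of -1.14 and -1.92, and averaged below the filter of 20 CPM. Bmp6, a BMP ligand, measured 102, 65.1, 25.4 and 26.1 CPM, with matched ratios of -1.09 and -1.51. In each of these genes both libraries with AMH lay below both without. Cebpa, a transcription factor of lipid-handling cells, had ratios of -1.36 and -0.70 and matched ratios of -1.10 and -0.90. Inha, the inhibin alpha subunit, had ratios of -0.90 and -0.99 and matched ratios of -0.58 and -0.70, and Mgarp, which the rule used to choose the cells, had matched ratios of -0.53 and -0.54.

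Other genes at the low end stayed lower past the fold in the matched range only in the pair with doxorubicin. Fabp3 had ratios of -1.74 and -2.15, but 0.13 and -1.49 in the matched range. Enpp2 (autotaxin) measured 33.9, 40.1, 2.42 and 7.502 CPM, and its ratios went from -1.64 and -2.60 to 0.20 and -1.44. Its matched levels were 6.49, 17.6, 3.35 and 8.23 CPM, each below the filter of 20 CPM. C7, a complement gene, went from -1.56 and -1.79 to 0.84 and -1.41. The AMH / control ratio of these 3 genes thus changed sign in the matched range. Serpina5 went from -0.83 and -1.46 to -0.15 and -0.95, and Kit from -1.08 and -1.23 to 0.28 and -0.70.

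At the high end Pdgfra still passed the fold in the matched range, by less, and Enpep did not. Pdgfra, a PDGF receptor of stromal cells, measured 19.6 CPM (17.8 to 21.5), 22.8 (20.2 to 25.7), 72.5 (63.6 to 82.2) and 62.0 (53.5 to 71.4). Its ratios were 1.45 and 1.48, and 0.56 and 1.00 in the matched range. Leukocytes held 21.9, 12.9, 15.5 and 49.97 CPM of Pdgfra, so in control and AMH they lay near the members. Enpep measured 39.7, 48.8, 134 and 154 CPM with ratios of 1.83 and 1.37, and 0.02 and -0.15 in the matched range. Agt (angiotensinogen) had ratios of 1.41 and 1.36 and matched ratios of 0.46 and 0.87. Mical2, an actin oxidoreductase, and Plau, a plasminogen activator, had ratios of 1.38 and 1.63 and of 1.21 and 1.79. Their matched ratios were 0.16 and 1.53 for Mical2 and 0.21 and 1.54 for Plau.

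Most tested BMP/SMAD targets were higher over all members with AMH, but 0 of the 5 passed the fold in both comparisons in the matched range. Of the 8 listed, 5 were tested and 4 (Id2, Id3, Smad7 and Bambi) were at least 0.5 higher in both comparisons, against the background of 2.09%. The list's medians were 0.75 and 0.65, against -0.08 and -0.07 over all genes, and 0.24 and 0.40 in the matched range. Id3, a dominant-negative partner of basic helix-loop-helix factors, measured 88.6 CPM (84.6 to 92.6), 78.3 (73.4 to 83.4), 192 (178 to 208) and 261 (243 to 280). Both libraries with AMH lay above both without. Its ratios were 1.51 and 1.24. Within the matched range Id3 measured 209, 97.2, 198 and 282 CPM, with ratios of 0.42 and 0.99, so control lay above doxorubicin+AMH and the doxorubicin library was low. Id2 (chr12:25093799-25097140, minus strand) measured 92.4, 72.2, 116 and 148 CPM with ratios of 0.66 and 0.65. Its matched levels were 129.7, 77.1, 103 and 154 CPM, with ratios of 0.24 and 0.40, and control again lay above doxorubicin+AMH.

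The other tested targets were Bambi, Smad7 and Id1. Bambi, a decoy receptor of the family, measured 28.0, 32.1, 56.8 and 51.2 CPM, with ratios of 0.77 and 0.74 and matched ratios of 0.09 and 0.40. Smad7, an inhibitory SMAD, measured 17.5, 15.95, 25.1 and 32.9 CPM, with ratios of 0.75 and 0.52 and matched ratios of 0.47 and 0.29. Id1 had ratios of 0.37 and -0.16, so its signs differed, and matched ratios of -0.37 and -0.10. In the whole pool of cells with theca markers, where the level did not select, Id3 measured 235, 239, 503 and 507 CPM and Id2 120, 105, 213 and 230 CPM. Cells below the threshold were 506 of 1248, 416 of 840, 679 of 796 and 852 of 949 cells of this pool. Thinned shares with Id3 were 48.5%, 43.6%, 60.8% and 57.1% in them and 13.1%, 12.5%, 25.0% and 28.9% in members. The part of this mix in the pool's values was not tested. The AMH receptor Amhr2 measured 57.6, 60.0, 39.3 and 40.4 CPM in members, and of 12 tested receptors and SMADs 0 passed the fold in both comparisons in either direction, against 2.09% and 4.38%.

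**Figure D4:**
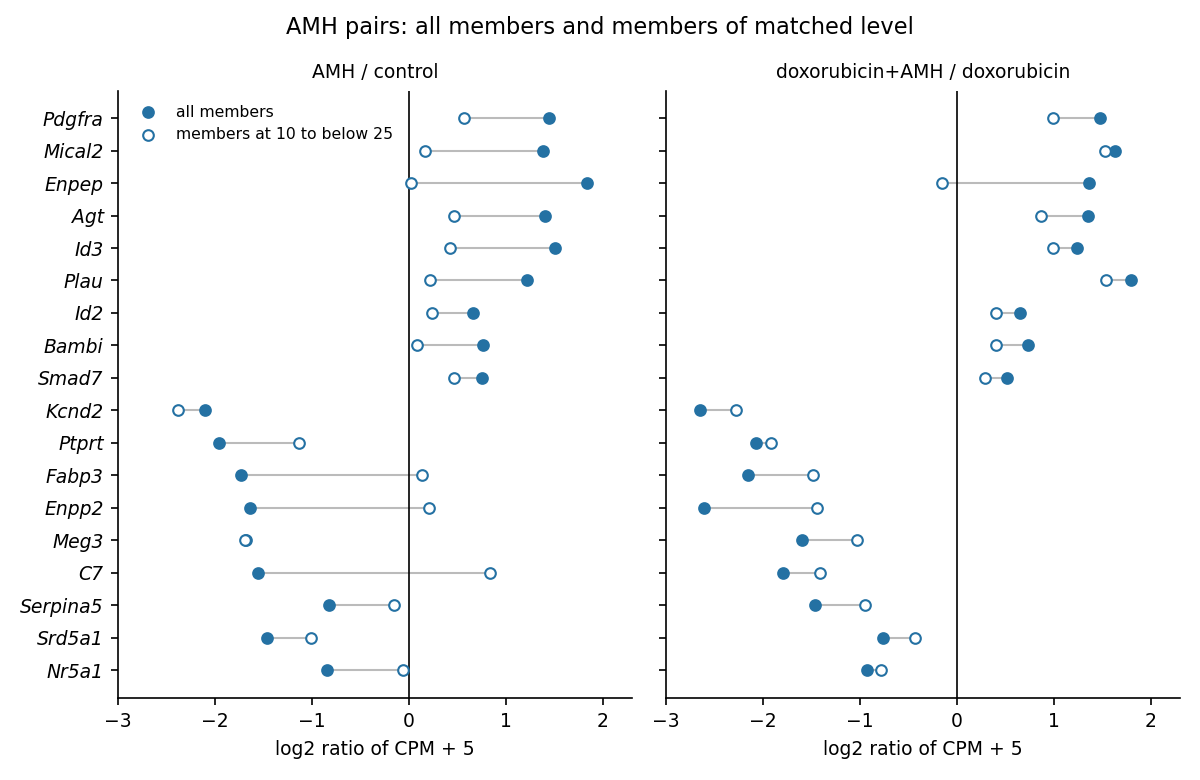
Log2 ratios of AMH / control and doxorubicin+AMH / doxorubicin for 18 genes, in all members and in members of the matched range of 10 to below 25. Kcnd2 lies at -2.10 and -2.65 in all members and at -2.38 and -2.28 in the matched range, and Enpep moves from 1.83 and 1.37 to 0.02 and -0.15.

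Steroid and cholesterol genes leaned lower with AMH in all members. Of 13 tested steroid genes outside the rule, 2 were lower past the fold in both comparisons and 0 higher, against 4.38% and 2.09% of all genes, with medians of -0.28 and -0.38. Srd5a1 (5-alpha reductase, which overlaps other genes on both strands) measured 180, 128, 73.4 and 61.6 CPM and had ratios of -1.47 and -0.76, with matched ratios of -1.01 and -0.43. Fdxr had ratios of -0.57 and -0.69 and matched ratios of -0.15 and -0.57, so neither passed the fold in both comparisons there. Cyb5a, the cytochrome that aids the lyase step of Cyp17a1, measured 185, 185, 222 and 196 CPM, with ratios of 0.08 and 0.26 and matched ratios of 0.08 and 0.03. In the matched range Fdx1 had ratios of 0.02 and 0.48, and the list's medians were -0.15 and -0.32. Of 26 tested cholesterol genes, 6 were lower in both comparisons, against 4.38% of all genes, and 0 were higher. Nceh1, a cholesterol ester hydrolase, had ratios of -0.98 and -1.0, and Hmgcs1 had -0.61 and -0.54. Their matched ratios were -0.39 and -0.66 for Nceh1 and 0.01 and -0.27 for Hmgcs1.

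Regulators of the cAMP route were spread over both directions. Of 20 tested genes, 5 were higher past the fold in both comparisons and 3 lower, against 2.09% and 4.38% of all genes. Pde10a, a phosphodiesterase, measured 821, 400, 1176 and 1311 CPM, with ratios of 0.67 and 1.55 and matched ratios of 1.07 and 2.03. In the whole pool of cells with theca markers its ratios were 0.06 and 1.82, short of the fold in the pair without doxorubicin. Crem, a cAMP-responsive repressor and activator, had ratios of 0.65 and 0.87 and matched ratios of 0.59 and 0.89. Rgs2, which damps G-protein signals, measured 87.9, 106, 243 and 172 CPM, with matched ratios of 0.48 and 0.91. Among the lower genes, Prkar2b, a regulatory subunit of protein kinase A, measured 841, 682, 389 and 291 CPM, and its ratios of -1.51 and -0.80 were -1.0 and -0.03 in the matched range. Pde8b, a phosphodiesterase of steroidogenic cells, had ratios of -1.11 and -1.11 and matched ratios of -0.38 and -0.92. Pde10a and Crem were singled out after their values were seen.

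Transcription factors and growth factor genes passed the fold in both directions, and matrix genes in the higher direction alone. Of 15 tested growth factor and receptor genes, 3 were higher and 2 lower, against 2.09% and 4.38% of all genes. Of 19 tested transcription factors, 4 were higher (Nr4a1, Nr4a2, Maf and Cebpd) and 2 lower (Nr5a1 and Cebpa), against 2.09% and 4.38% of all genes. Of the 4, Cebpd alone passed the fold in the matched range, where Nr4a2 had 0.44 and 0.32 and Maf 0.76 and 0.36. Cebpd measured 47.1, 54.0, 151 and 96.2 CPM, with matched ratios of 0.57 and 1.23. Nr5a1 had ratios of -0.85 and -0.93, and -0.06 and -0.79 in the matched range. Nr4a1, an immediate early nuclear receptor, had ratios of 0.68 and 0.55 and matched ratios of 0.42 and 0.35, and the 22 genes of tissue dissociation stress, which include it, had medians of 0.21 and 0.14. The part of dissociation stress in the Nr4a1 values was not tested. Of 22 matrix and adhesion genes 6 were higher and 0 lower, against the same 2.09% and 4.38%, with medians of 0.37 and 0.57, and -0.13 and 0.39 in the matched range. Col1a2, a fibrillar collagen chain, measured 261, 251, 751 and 523 CPM, with matched ratios of -0.10 and 1.08, and stromal fibroblast markers summed to 519, 364, 437 and 345 CPM in the matched range. Igfbp7, which binds insulin-like growth factors and insulin, measured 811, 796, 1768 and 1484 CPM, with matched ratios of 0.39 and 1.08.

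Of 53 named genes that passed the fold in both AMH comparisons over all members, 11 still passed it in the matched range and 40 kept their signs. The 11 were Kcnd2, Meg3, Ptprt, Bmp6, Cebpa, Inha, Mgarp, Pdgfra, Crem, Pde10a and Cebpd, of which Ptprt lay below the filter there and Mgarp was a gene of the rule. In the whole pool of cells with theca markers, 36 of the 53 passed the fold in both comparisons. Of the 11, those that fell short there were Meg3 (-0.41 and -0.26), Inha (-0.35 and -0.57), Crem (0.47 and 0.79) and Pde10a (0.06 and 1.82). Single cells carried part of both low and high values in the matched range. For Kcnd2, 1 cell held 24.4% of the UMIs of the doxorubicin+AMH library there and 21.7% in doxorubicin. Among all genes the matched range placed Nfkb1, an NF-kappaB subunit, at 128, 90.4, 259 and 308 CPM, Peg10, an imprinted gene, at 62.1, 54.4, 130 and 140 CPM, and Vcam1, an adhesion molecule, at 50.03, 74.5, 143 and 151 CPM. Lower there were Itga6, a laminin receptor subunit, at 109, 72.7, 17.7 and 32.9 CPM, Kcnab1, a potassium channel subunit, at 69.2, 50.1, 14.8 and 17.3 CPM, and Ano1, a chloride channel, at 63.6, 52.6, 16.7 and 20.8 CPM. For Kcnab1, 1 cell held 49.6% of the UMIs of the doxorubicin library in this range, and for Itga6 1 cell held 29.1% in control and 32.7% in doxorubicin. For Vcam1, 1 cell held 25.7% in doxorubicin+AMH and 22.1% in AMH. These were named after their values were seen.

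Few genes differed past the fold in both doxorubicin comparisons, and the p53 target Cdkn1a led those that were higher. The pairs doxorubicin / control and doxorubicin+AMH / AMH, given in this order, share no library. Of 6208 genes, 3 were at least 0.5 higher in both, a background of 0.0483%, and 5 were at least 0.5 lower, a background of 0.0805%. The 2 sets of ratios had Pearson's r of -0.152 and Spearman's rho of -0.0228 across genes, and 51.0% of genes had the same sign. In the matched range 6 genes of 6263 were higher in both and 18 lower, backgrounds of 0.0958% and 0.287%. Cdkn1a (chr17:29090976-29100727, plus strand), which encodes the cell cycle inhibitor p21, measured 12.7 CPM (11.2 to 14.2) in control, 67.0 (62.5 to 71.8) in doxorubicin, 38.0 (31.7 to 45.3) in doxorubicin+AMH and 13.7 (9.87 to 18.5) in AMH. Both libraries with doxorubicin lay above both without. The ratios were 2.03 without AMH and 1.203 with AMH, and 2.01 and 0.90 in the matched range. In that range 1 cell held 25.8% of the Cdkn1a UMIs in doxorubicin and 29.1% in doxorubicin+AMH. In cells below the threshold Cdkn1a measured 47.9, 295, 55.4 and 26.5 CPM. Leukocytes carried 202, 611, 325 and 118 CPM of Cdkn1a, and the part of other cells' RNA in the members' values was not tested.

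Of 13 tested p53 targets, 9 had their highest level over all members in the doxorubicin library, Btg2, Plk2 and Ddit4l in doxorubicin+AMH and Sesn1 in control. Of the 32 listed, these 13 were tested, 9 had ratios above 0 in both comparisons, as did 1372 of the 6208 genes, and 1 passed the fold in both, against 0.0483% of all genes. The list's medians were 0.29 and 0.08, against -0.02 and -0.01 over all genes. Ccng1, a cyclin, measured 15.9, 37.6, 23.3 and 17.0 CPM, with ratios of 1.03 and 0.36. Mdm2, the p53 ligase, measured 39.0, 55.8, 38.7 and 36.9 CPM, with ratios of 0.47 and 0.06. Btg2, an antiproliferative gene, measured 524, 655, 746 and 735 CPM, and 563, 676, 789 and 761 CPM in the matched range, highest in doxorubicin+AMH. The doxorubicin+AMH value of Mdm2 thus lay within the counting interval of control (36.4 to 41.7). Bax, a pro-apoptotic gene, measured 70.2, 93.8, 87.3 and 74.0 CPM, and Trp53inp1, which aids p53 activity, 57.5, 85.0, 51.6 and 48.9 CPM. Eda2r, a receptor named after its values were seen, lay below the filter at 1.72, 15.1, 7.55 and 1.96 CPM. Whether the response differed with AMH was not tested, since each arm is 1 library.

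The other genes at the ends of the doxorubicin comparisons were few and partly carried by single cells. Mia, a secreted protein whose transcript end is shared with 1 other gene, measured 31.8, 64.0, 18.1 and 10.1 CPM, with ratios of 0.91 and 0.61 and matched ratios of 1.2 and 0.34. Tnfaip6, a hyaluronan-binding protein of the ovulating follicle, measured 15.9, 26.2, 44.4 and 23.5 CPM, with ratios of 0.58 and 0.79 and matched ratios of 0.23 and 0.69, short of the fold in the pair without AMH. Mrap, an accessory protein of the ACTH receptor, had ratios of 0.42 and 0.51 and matched ratios of 0.62 and 0.58. Lsmem1 had ratios of 0.42 and 0.43 and matched ratios of -0.24 and 0.44. Pde7b, a cAMP phosphodiesterase, was lower with doxorubicin at 108, 54.1, 127 and 230 CPM, with ratios of -0.93 and -0.83 and matched ratios of -0.65 and -0.63. In the whole pool of cells with theca markers Pde7b had doxorubicin ratios of -0.31 and -0.01, short of the fold. Its AMH ratios were 1.06 and 1.16, but 0.38 and 0.39 in the matched range, short of the fold in both comparisons. Rad51b, a recombination gene, measured 47.8, 30.4, 19.0 and 33.6 CPM, with ratios of -0.58 and -0.68 and matched ratios of -1.45 and -1.09. Its matched control level was 109.6 CPM, of which 1 cell held 20%, and in the whole pool of cells with theca markers its ratios were 0.09 and -0.07. Cd74 had ratios of -2.15 and -3.69, but 1 cell held 94.8% of its UMIs in the AMH library, and 1 cell held 46.0% of the Crip1 UMIs there.

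**Figure D5:**
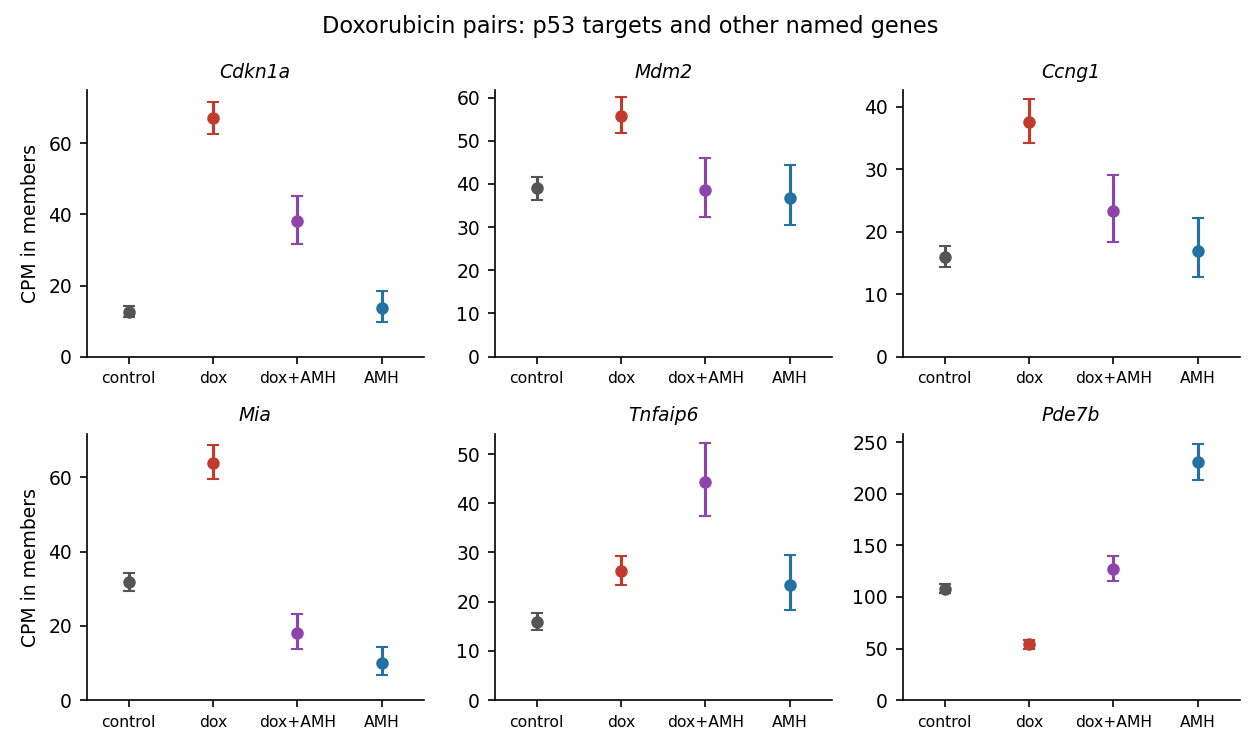
Level in CPM of Cdkn1a, Mdm2, Ccng1, Mia, Tnfaip6 and Pde7b in the members of each library, with exact 95% Poisson intervals for counting error. Cdkn1a stands at 12.7, 67.0, 38.0 and 13.7 CPM, so both libraries with doxorubicin lie above both without.

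Some members qualified through Cyp11a1 alone. Members with 0 Cyp17a1 UMIs numbered 10, 42, 15 and 20. In the matched range they were 5 of 117, 27 of 93, 12 of 67 and 17 of 75 members. Over all ranges, members with 0 Cyp17a1 UMIs were shallower, with median totals of 15340.5, 18635.5, 15032 and 14559.5 UMIs. Their Cyp11a1 measured 2760, 2165, 2134 and 1717 CPM, and their Hsd3b1 4888, 4500, 3927 and 3225 CPM. Insl3 measured 6.33, 23.4, 25.5 and 33.8 CPM in them, against 75.3, 62.3, 28.3 and 70.8 CPM in the other members. Enpep measured 0, 4.13, 89.3 and 9.22 CPM against 40.0, 51.6, 137 and 172 CPM, and the interval of the 0 in control runs up to 23.4 CPM. Inha measured 1178, 447, 548 and 298 CPM against 419, 451, 200 and 216 CPM, so it was higher in them in each library but doxorubicin. In that library the intervals were 400 to 499 and 439 to 464 CPM.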

How the data were processed

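Ovaries of 4 groups of mice were sequenced as droplet libraries of 3′ transcript ends, 1 library per group with 5 animals pooled. The authors deposited UMI counts per gene (32285) and cell, not normalized. Per the file headers these counts came from Cell Ranger 7.0.0. R 4.2.0, Seurat 4.1.0 and mm10 are named by the submitters' processing notes. Whether intronic reads were counted is not given in the sources used here. The lowest deposited totals show that barcodes had been filtered to called cells.

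Members were picked per cell by the rule in the text, with no doublets removed, in Python 3.11.15 with numpy 2.4.6, scipy 1.17.1 and pandas 2.3.3, and doublets were scored with Scrublet in scanpy 1.11.5. Members' UMIs were added up in each library and scaled to CPM. Genes averaging 20 CPM or more over the libraries were tested against a fold of 0.5 (log2, pseudocount 5 CPM) in both pairs. That is a rule of size, and with 1 library per group no test was run. The members and gene lists were chosen with earlier results of these data known. Named genes are the rule genes, the 2 first-listed, highest and lowest genes of each list, the 6 highest and 6 lowest over all genes for AMH, 5 each for doxorubicin and 10 each against cells below the threshold, by the ratio closest to 0. Intervals are exact Poisson for sums and Clopper-Pearson for shares. Leukocytes were cells within the limits with at least 2 Ptprc UMIs, outside the pool of cells with theca markers. Positions were taken from the GRCm38 annotation (GENCODE M21), in which 598 of 598 gene IDs matched. The script was tested on simulated data. Alternatives covered the limits, threshold, markers, doublets, scaling, weighting, pseudocount and filter. Some results are not reported here.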

Additional observations from a re-analysis of the deposited data

Results flagged for a closer look

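Among the named genes, 3 passed the fold of 0.5 in both comparisons made with separate libraries but with opposite signs. These differences were not tested. Bmpr1b, a type I BMP receptor, had an AMH ratio of -0.50 without doxorubicin and of 0.75 with it, and 1 cell held 46.3% of its UMIs in the doxorubicin+AMH library. Hbb-bs, a beta-globin of red cells, had AMH ratios of -6.07 and 1.84, and doxorubicin ratios of -1.45 without AMH and 6.46 with it. For Hbb-bs, 1 cell held 99.1% of the UMIs in the doxorubicin+AMH library and 87.2% in doxorubicin. Top2a, a topoisomerase of dividing cells, had ratios of 1.95 and -1.12 in the AMH comparisons and 0.77 and -2.30 in the doxorubicin comparisons, and 1 cell held 29.4% of its UMIs in control and 27.4% in AMH.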

How the results depend on the processing

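Of 194 recomputed main values, 151 stayed within the spread set for them and 43 moved. Of 2832 values of single genes and lists, 2470 stayed, 361 moved and 1, a list median, turned past 0. A gene whose 2 ratios no longer shared a sign, or a list median within 0.5 of 0 that turned sign, was counted by its distance alone. The shares of members moved to 7.04% in control and 5.75% in doxorubicin with a mitochondrial limit of 10%, and to 7.85%, 5.81%, 0.888% and 0.527% (library order as in the text) with a threshold of 20. They were 14.5%, 13.1%, 11.4% and 11.1% with no threshold, and 5.96% in doxorubicin and 0.901% in AMH without members with 0 Cyp17a1 UMIs. Genes higher and lower in both AMH comparisons (130 and 272) numbered 221 and 441 with no filter on low values, 78 and 169 with a filter of 50 CPM, and 49 and 113 in the matched range, and 75 were higher with no threshold. Median-of-ratios scaling gave 159 and 217, and leaving out cells of high Scrublet score 194 and 299. The genes themselves also changed. Of the 130 and 272, 35 and 139 were called again with no threshold, 84 and 212 with a threshold of 20, and 92 and 197 with each cell weighted equally.

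Genes higher and lower in both doxorubicin comparisons (3 and 5) numbered 13 and 19 with no filter, 0 and 2 at 50 CPM, and 6 and 18 in the matched range. The higher count was 5 with a mitochondrial limit of 10%, 5 with a threshold of 20 and 6 with each cell weighted equally. The lower count was 20 with no threshold and 3 without cells of high Scrublet score. Genes lower in members than below the threshold (501) numbered 266 with 4 of 6 markers, 1127 with no filter and 215 at 50 CPM. The BMP/SMAD target medians (0.75 and 0.65) were 0.62 for AMH / control at 10% mitochondrial UMIs, 0.81 for doxorubicin+AMH / doxorubicin at a threshold of 20, 0.94 and 0.86 with no threshold, 0.86 and 0.35 with each cell equal, 0.24 and 0.40 in the matched range, and 0.65 for AMH / control without members with 0 Cyp17a1 UMIs. The p53 median for doxorubicin / control was 0.46 with no threshold, where the matrix median for doxorubicin+AMH / doxorubicin turned to -0.073. The cause was not tested.

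The analyses limited to the matched range, to members with Cyp17a1 UMIs or to members with at least 5000 UMIs were chosen after seeing the data. An average over the 4 ranges of steroidogenic level was not run, because the AMH library has 0 members from 100 upwards. No paired test was run, as each group is 1 library. Members of the libraries with AMH hold few UMIs of genes under about 20 CPM, and counting error and single cells limit these values.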

Other observations

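Genes of the nuclear-encoded respiratory chain had small ratios. Of 37 tested, 36 had ratios above 0 in doxorubicin / control and 20 in doxorubicin+AMH / AMH, against 2786 and 2997 of all 6208 genes. Of the 37, 19 had ratios above 0 in both doxorubicin comparisons, as did 1372 of all 6208 genes, and 27 had ratios below 0 in both AMH comparisons, as did 2925 of 6208, and 0 passed the fold in both comparisons of either kind. The list's medians were 0.11 for doxorubicin without AMH, 0.02 for doxorubicin with AMH, -0.15 for AMH without doxorubicin and -0.22 for AMH with doxorubicin. In the matched range the AMH medians were 0.0028 and -0.21. Cycs (cytochrome c) measured 125, 144, 132 and 111 CPM over the libraries in the order used above. Mgst1, a microsomal glutathione transferase, measured 558, 662, 290 and 358 CPM, with AMH ratios of -0.63 and -1.18 and matched ratios of -0.27 and -0.95. Of 8 tested DNA repair genes, 0 passed the fold in either kind of comparison, where 2.09% and 4.38% of all genes were higher and lower for AMH and 0.0483% and 0.0805% for doxorubicin.

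Of 6 tested hedgehog genes, 1 was higher and 1 lower past the fold in both AMH comparisons, against 2.09% and 4.38% of all genes, and neither passed in the matched range. Hhip, a hedgehog target and decoy receptor, measured 37.5, 25.6, 66.1 and 69.5 CPM, with AMH ratios of 0.81 and 1.22. Its matched ratios were -0.59 and 0.00, so AMH / control passed the fold in the opposite direction. Boc, a hedgehog co-receptor, measured 110, 101, 51.9 and 66.9 CPM, with matched AMH ratios of -0.04 and -0.96. Aldh1a2, a retinaldehyde dehydrogenase, had AMH ratios of -1.24 and -1.04 and matched ratios of -0.73 and -0.39. Few members carried cycling transcripts: after thinning to 2000 UMIs, at least 5 UMIs of the G2/M list were seen in 3 of 738, 6 of 393, 3 of 116 and 4 of 97 members, and in 72 of 503, 62 of 404, 38 of 678 and 38 of 849 cells below the threshold.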
